A study of Mus musculus with 12 samples.

Results

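The 8 genes described here encode enzymes that write, copy and oxidise DNA methylation in the mouse, or proteins that assist them. These genes are Dnmt1, Dnmt3a, Dnmt3b, Dnmt3l, Uhrf1, Tet1, Tet2 and Tet3. They were chosen by name, and all 8 are among the 26061 genes of the deposited gene table. All 8 also passed the filter on low values that left 14487 genes for testing. Total RNA depleted of ribosomal RNA was sequenced from E14 mouse embryonic stem cells of 129/Ola background, kept on gelatin without feeder cells. Cells carried either a lentiviral pLKO.1 shRNA against Setdb1 or the non-targeting shScr. The gene Setdb1 encodes a methyltransferase for lysine 9 of histone H3. Each was grown in 2i medium, which held N2, B27 and LIF with inhibitors of MEK (PD0325901) and of GSK3 (CHIR99021), or in serum medium with LIF. The 4 groups, with 3 libraries each, were therefore 2i shSetdb1 (2i knockdown), 2i shScr (2i control), serum shSetdb1 (serum knockdown) and serum shScr (serum control). All groups were transduced, selected with puromycin (1 µg/ml, begun 48 hours after infection) and harvested 3 days into selection. The submitters call the 2i cells naive and the serum cells primed. The groups used here hold no second shRNA against Setdb1 and no rescue, so loss of Setdb1 and other effects of the shRNA cannot be told apart. Nothing says whether the 3 libraries of a group came from separate cultures, and the spread that the p-values rest on may be technical.

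In mammals DNA methylation sits mostly on cytosines of CpG dinucleotides. DNMT1 copies the pattern onto the new strand at replication, and UHRF1 recruits it by binding hemimethylated CpGs. DNMT3A and DNMT3B methylate unmodified DNA, and DNMT3L, which has no catalytic activity, stimulates them. TET1, TET2 and TET3 oxidise 5-methylcytosine to 5-hydroxymethylcytosine and further, the first step of active demethylation. In mouse embryonic stem cells TET1 and TET2 are the main TET enzymes, and 2i medium is known for low expression of the DNMT3 genes and low global DNA methylation.

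Because these genes act on CpGs, the promoter windows of 3 of them are shown for their own CpG content, with CG in capitals. Dnmt3a and Tet2 passed in tests described below, and Dnmt3b encodes the other catalytic de novo enzyme. The sequences are from RefSeq on GRCm38.p6, another build than that named for the deposited files, and run from 250 bases before to 50 bases after an annotated start. The Dnmt3a window is that of the start farthest into the gene. All 8 genes matched the RefSeq table, with 15 windows between them.
Dnmt3a, chr12:3891494-3891793, plus strand: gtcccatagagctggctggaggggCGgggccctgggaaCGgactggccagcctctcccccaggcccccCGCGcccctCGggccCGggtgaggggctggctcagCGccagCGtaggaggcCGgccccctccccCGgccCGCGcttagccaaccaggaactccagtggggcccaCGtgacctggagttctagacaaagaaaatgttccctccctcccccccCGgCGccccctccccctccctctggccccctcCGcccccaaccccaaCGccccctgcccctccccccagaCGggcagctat
Dnmt3b, chr2:153649199-153649498, plus strand: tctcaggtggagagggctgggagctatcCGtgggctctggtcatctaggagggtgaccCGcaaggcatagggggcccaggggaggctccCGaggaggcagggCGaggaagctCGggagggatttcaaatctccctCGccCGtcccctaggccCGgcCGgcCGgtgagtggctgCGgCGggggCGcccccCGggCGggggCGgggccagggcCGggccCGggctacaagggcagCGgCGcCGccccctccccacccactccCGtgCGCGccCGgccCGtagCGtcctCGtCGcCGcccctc
Tet2, chr3:133544341-133544640, minus strand: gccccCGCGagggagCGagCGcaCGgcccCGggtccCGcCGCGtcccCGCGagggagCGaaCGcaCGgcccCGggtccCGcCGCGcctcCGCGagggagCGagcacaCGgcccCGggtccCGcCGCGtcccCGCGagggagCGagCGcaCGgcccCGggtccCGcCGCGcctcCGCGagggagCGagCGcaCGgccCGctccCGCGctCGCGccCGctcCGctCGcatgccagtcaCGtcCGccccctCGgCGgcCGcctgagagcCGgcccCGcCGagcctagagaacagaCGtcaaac
The Tet2 window held 57 CpGs, more than 99.8% of the 32851 windows of that length in the table, whose median was 7. The Dnmt3b window held 30 CpGs and the Dnmt3a window 18, while the other 2 Dnmt3a starts had 46 and 47. The 3 Dnmt3l windows held 6, 4 and 3 CpGs. The gene family thus spans CpG-dense and CpG-poor starts. The GC box GGGCGG, searched on both strands, occurred 2 times in the printed Dnmt3a window, 4 times in that of Dnmt3b and 1 time in that of Tet2, and 35.7% of all windows held it. Neither CTTTGA, the core bound by TCF factors of the Wnt pathway, nor CCGGAA, the core bound by ETS factors, was found in these 3 windows on either strand, and 16.0% and 14.9% of all windows held them.

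Libraries held 4821181 to 15509401 gene reads, as recovered from the deposited values, and the shallowest was 2i knockdown replicate 3. Normalised reads below are these reads divided by the library's size factor. Setdb1 had 837, 610 and 340 normalised reads in the 2i knockdown libraries, against 3607, 2724 and 2253 in the 2i controls. It had 418, 379 and 409 in the serum knockdown, against 2959, 2237 and 1587 in the serum controls, so the knockdown groups lay below their controls in both media. The 6 embryonic stem cell markers summed to 30308 to 39073 normalised reads in the 2i knockdown and 32707 to 38638 in the 2i control. They summed to 31049 to 34854 in the serum knockdown and 35831 to 43230 in the serum control. Replicate 3 had the largest share of structural RNA in every group. Structural RNA and tRNA families took 69.5% of its repeat reads in the 2i knockdown, 64.6% in the 2i control, 42.6% in the serum knockdown and 48.3% in the serum control. In replicates 1 and 2 that share was 19.9 and 55.6% in the 2i knockdown, 32.1 and 38.9% in the 2i control, 16.1 and 15.6% in the serum knockdown and 24.2 and 29.9% in the serum control. The members are therefore given by library, and their tests also without replicate 3. In bulk RNA, fewer cells that express a gene and less RNA per cell cannot be told apart.

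**Figure D1:**
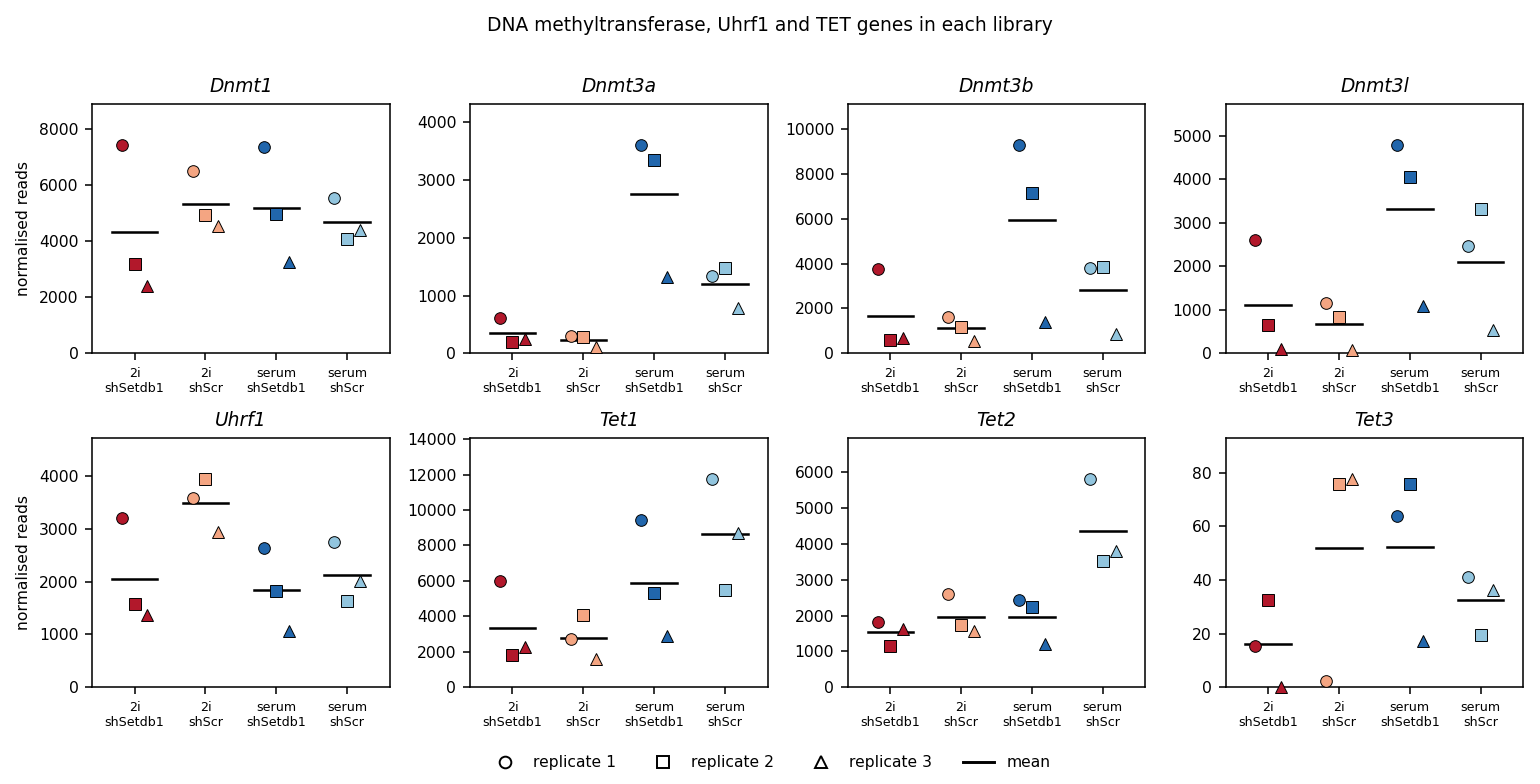
Normalised reads (vertical axis, linear, from 0) of the 8 genes in each of the 12 libraries, with the groups from left to right 2i shSetdb1, 2i shScr, serum shSetdb1 and serum shScr. Symbols give the replicate number and bars the group mean; Dnmt3a lies at 114 to 611 in 2i and at 781 to 3604 in serum, while replicate 3 is the lowest Dnmt3l library of every group.

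Dnmt3a was lower in 2i than in serum in both knockdown and control cells, and it was the only member to pass with all 12 libraries and no replicate block or covariate. A gene passed at a limma p, adjusted over all 14487 genes tested, under 0.05. Between knockdown and control, 0 of the 8 passed in 2i, where 1.27% of all 14487 genes did, and 0 of 8 in serum, where 0.649% did. At an unadjusted p under 0.05 stood 1 member in 2i, Uhrf1, beside 1067 of all 14487 genes. In serum 2 members did, Dnmt3a and Tet2, beside 738 of all genes. After adjustment, voom on the recovered reads also called 0 members in each, beside 114 genes in 2i and 63 in serum. For the media, 1 of 8 passed in knockdown cells and 1 of 8 in control cells, Dnmt3a both times, where 3.75% and 3.62% of all genes passed. The difference of the knockdown changes between media called 0 members, 0 at an unadjusted p under 0.05 and 0 with voom. It called 0 of all genes with limma (0% of them, 404 at an unadjusted p under 0.05) and 0 with voom. Both media comparisons share their groups with the knockdown comparisons. Groups of 3 libraries did not overlap for 0 of 8 members with the knockdown in 2i (10.7% of all genes) and for Tet2 alone in serum (9.71%). Between media they did not overlap for Dnmt3a alone in knockdown cells, where it was lower in 2i. In that comparison 10.1% of all genes were lower without overlap. This share is for the lower direction only, while the other shares given here count either direction. In control cells the media did not overlap for Dnmt3a, Tet1, Tet2 and Uhrf1, 4 of 8 (23.8%).

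Neither maintenance gene passed in any of these comparisons. Dnmt1 had 7405, 3164 and 2400 normalised reads in the 2i knockdown, against 6482, 4920 and 4518 in the 2i control. In serum it had 7346, 4976 and 3243 in the knockdown, against 5527, 4054 and 4400 in the control. All 4 ranges overlapped, and its 4 group means on the deposited log2 scale lay within 0.45 of each other. Uhrf1 had 3217, 1575 and 1372 normalised reads in the 2i knockdown, against 3583, 3939 and 2944 in the 2i control, where only knockdown replicate 1 reached into the control range. Its serum values were 2630, 1826 and 1058 in the knockdown and 2749, 1629 and 2017 in the control, which overlapped. The 2i control libraries were all above the serum control libraries for Uhrf1, 1.64-fold by their means. That difference was 0.72 on the log2 scale (SE 0.38, limma adjusted p = 0.347).

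Dnmt3a, which encodes a de novo methyltransferase, carried the largest difference between media of the 8 genes. It had 293, 281 and 114 normalised reads in the 2i control, against 1335, 1473 and 781 in the serum control. Its values were 611, 194 and 252 in the 2i knockdown, against 3604, 3358 and 1329 in the serum knockdown. No 2i library reached the lowest serum library. In control cells Dnmt3a averaged 229 ± 100 in 2i and 1196 ± 367 in serum (SD, n = 3 each), and fell 5.21-fold in 2i. On the log2 scale it fell by 2.23 (SE 0.46; limma, adjusted p = 0.0144). In knockdown cells it averaged 352 ± 226 in 2i and 2763 ± 1248 in serum, and fell 7.85-fold in 2i (−2.85 on the log2 scale, SE 0.46; limma, adjusted p = 0.00387). In control cells the call was lost without serum control replicate 1 (limma adjusted p = 0.0596), serum control replicate 2 (0.0766) or 2i control replicate 3 (0.0870), with log2 changes of −2.13, −2.06 and −1.86. It held without all 4 libraries numbered 3, at −2.13 in control cells (limma adjusted p = 0.0230) and −3.17 in knockdown cells (limma adjusted p = 0.00294). Without the filter on low values neither call held (limma adjusted p = 0.120 and 0.0574).

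Dnmt3b varied more among libraries of a group than Dnmt3a did. It had 1602, 1188 and 523 normalised reads in the 2i control, against 3818, 3836 and 866 in the serum control. It had 3748, 570 and 675 in the 2i knockdown, against 9277, 7139 and 1378 in the serum knockdown. The ranges of the media overlapped, with both serum replicates 3 far below the other serum libraries. The log2 change in 2i relative to serum was −1.19 in control cells (SE 0.78, limma adjusted p = 0.482) and −1.94 in knockdown cells (SE 0.78, limma adjusted p = 0.192). Without replicate 3 of every group they were −1.44 (limma adjusted p = 0.269) and −2.42 (limma adjusted p = 0.0652). In knockdown cells Dnmt3b passed without serum knockdown replicate 3 (−2.79, limma adjusted p = 0.0493) and without 2i knockdown replicate 1 (−2.78, limma adjusted p = 0.0236).

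Dnmt3l, the cofactor, had the largest standard error of the 8 genes. It had 1154, 830 and 64.6 normalised reads in the 2i control, against 2463, 3320 and 543 in the serum control. It had 2604, 659 and 94.0 in the 2i knockdown, against 4783, 4051 and 1093 in the serum knockdown. Replicate 3 was the lowest of each group, and the media overlapped. The log2 change in 2i relative to serum was −1.84 in control cells (SE 1.03, limma adjusted p = 0.394) and −2.16 in knockdown cells (SE 1.03, limma adjusted p = 0.275). Without replicate 3 of every group they were −1.51 (limma adjusted p = 0.155) and −1.71 (limma adjusted p = 0.108). Without 2i knockdown replicate 1 the change in knockdown cells was −3.20 and passed (limma adjusted p = 0.0444). In the GENCODE vM21 annotation, exons on the other strand overlap those of Dnmt3l by 67 bases (Aire), of Dnmt3a by 133 bases (Dnmt3aos) and of Tet2 by 43 bases (Gm42567). The library kit kept strand, but whether reads were counted by strand is not given in the sources used here, so these stretches are uncertain.

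The balance of Dnmt3a and Dnmt3b reads also tended to differ between media, which was not tested. Reads of Dnmt3a over those of Dnmt3b, within a library, stood at 0.183, 0.237 and 0.217 in the 2i control, against 0.350, 0.384 and 0.901 in the serum control. In knockdown cells the ratio was 0.163, 0.340 and 0.373 in 2i, against 0.388, 0.470 and 0.965 in serum. Every 2i library had a lower ratio than every serum library except serum control replicate 1, which lay between 2i knockdown replicates 2 and 3. The ratio also varied widely within serum, where replicate 3 was the highest of both groups. These ratios are of reads without length and serve to compare libraries, not the 2 genes. Dnmt3c, a copy of Dnmt3b in rodents, is not analysed here, and reads from near-identical stretches of both are uncertain.

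Among the TET genes, Tet1 and Tet2 were lower in the 2i control than in every serum control library, and Tet3 had few reads. Tet1 had 2699, 4059 and 1590 normalised reads in the 2i control, against 11728, 5498 and 8697 in the serum control. That was 3.11-fold lower by the means, a log2 difference of −1.65 (SE 0.51, limma adjusted p = 0.0882). Without 2i knockdown replicate 1, which enters only through the shared variance, it passed (limma adjusted p = 0.0343). In knockdown cells Tet1 had 5996, 1794 and 2290 in 2i, against 9413, 5296 and 2864 in serum, and these ranges overlapped (−0.83, SE 0.51, limma adjusted p = 0.413).

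Tet2 had 2591, 1741 and 1581 normalised reads in the 2i control, against 5797, 3512 and 3788 in the serum control. It was 2.21-fold lower in 2i by the means, a log2 difference of −1.13 (SE 0.34, limma adjusted p = 0.0794). In knockdown cells it had 1826, 1137 and 1623 in 2i, against 2434, 2239 and 1212 in serum. Tet2 thus differed between media by 2.21-fold in control cells and by 1.28-fold in knockdown cells. Tet3 had 15.4, 32.5 and 0 normalised reads in the 2i knockdown and 2.17, 75.9 and 77.5 in the 2i control. In serum it had 63.9, 75.8 and 17.3 in the knockdown and 41.2, 19.5 and 36.4 in the control. Libraries of a group differed widely, and no comparison of Tet3 passed.

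Levels were set beside each other per kilobase of merged exons in GENCODE vM21, which can exceed the length transcribed in these cells. In the 2i control Uhrf1 stood at 819 ± 118 and Dnmt1 at 719 ± 141 normalised reads per kilobase (SD, n = 3), which overlapped. Dnmt3l at 229 ± 187, Dnmt3b at 216 ± 107, Tet1 at 180 ± 80.0 and Tet2 at 117 ± 32.2 followed and did not separate beyond their spread. Dnmt3a at 13.8 ± 6.03 and Tet3 at 3.10 ± 2.58 were the lowest. In the serum control 5 genes lay close together, Dnmt3l at 706 ± 476, Dnmt1 at 632 ± 104, Tet1 at 559 ± 202, Dnmt3b at 556 ± 335 and Uhrf1 at 500 ± 133. Tet2 at 259 ± 73.9, Dnmt3a at 71.9 ± 22.0 and Tet3 at 1.94 ± 0.682 followed in that order. In control cells both maintenance genes thus led in 2i, while in serum Dnmt3b, Dnmt3l and Tet1 were in the same range as them. In the serum knockdown Dnmt3b stood at 1162 ± 800 and Dnmt3l at 1107 ± 654 per kilobase, beside Dnmt1 at 703 ± 279 and Uhrf1 at 432 ± 185. In the 2i knockdown Dnmt1 stood at 586 ± 365, Uhrf1 at 482 ± 238, Dnmt3l at 374 ± 441 and Dnmt3b at 326 ± 354, which overlapped.

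In serum Tet2 was the 1 member of 8 whose knockdown and control libraries did not overlap, a share near the 9.71% of all genes. Its 3 knockdown libraries, at 2434, 2239 and 1212 normalised reads, all lay below the control libraries, at 5797, 3512 and 3788. The mean was 2.23-fold lower, a log2 difference of −1.16 (SE 0.34, limma adjusted p = 0.255). Serum libraries of the same replicate number deviated from their group means together. With the replicate number as a block Tet2 fell in the serum knockdown (SE 0.25, limma adjusted p = 0.0268), and likewise with the block set within medium (SE 0.24, limma adjusted p = 0.0287). Those fits called 1.18% and 1.46% of all genes. Pair by pair, the ratio of knockdown to control reads for Tet2 was 0.420, 0.638 and 0.320 for replicates 1, 2 and 3. Without replicate 3 of every group the unblocked log2 difference was −0.94 (limma adjusted p = 0.674). In 2i the Tet2 difference was −0.35 (SE 0.34, limma adjusted p = 0.894), and that in 2i minus that in serum was 0.81 (SE 0.47, limma adjusted p = 1.00).

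The de novo genes were higher in each serum knockdown library than in the control library of the same number. The ratio was 2.70, 2.28 and 1.70 for Dnmt3a, 2.43, 1.86 and 1.59 for Dnmt3b, and 1.94, 1.22 and 2.01 for Dnmt3l. None of them passed, and the serum knockdown libraries had a smaller structural RNA share than the control libraries of the same number. This share is of repeat reads, so it also falls when reads of other repeats rise. Whether the knockdown itself changed the share was not tested. Log2 differences were 1.10 for Dnmt3a (SE 0.46, limma adjusted p = 0.839), 0.93 for Dnmt3b (SE 0.78, adjusted p = 1.00) and 0.73 for Dnmt3l (SE 1.03, adjusted p = 1.00). With the block set within medium the limma adjusted p was 0.0920, 0.289 and 0.348. With the structural RNA share as a covariate the log2 differences were 0.70 for Dnmt3a, 0.18 for Dnmt3b and −0.28 for Dnmt3l (limma adjusted p = 0.264, 0.890 and 0.855). Tet1 stood at −0.65 in serum (SE 0.51, adjusted p = 1.00), with ratios of 0.803, 0.963 and 0.329, and without replicate 3 of every group at −0.18.

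In 2i same-numbered libraries did not deviate together throughout, and the knockdown libraries differed among themselves. Replicate 2 of the 2i knockdown lay below its control for all 8 genes, while replicate 1 lay above it for 6 of them. Uhrf1 had the largest difference relative to its error in 2i, −0.84 (SE 0.38, limma adjusted p = 0.617). The other 7 members lay between −0.81 for Tet3 and 0.48 for Dnmt3a (limma adjusted p from 0.831 to 0.978).

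**Figure D2:**
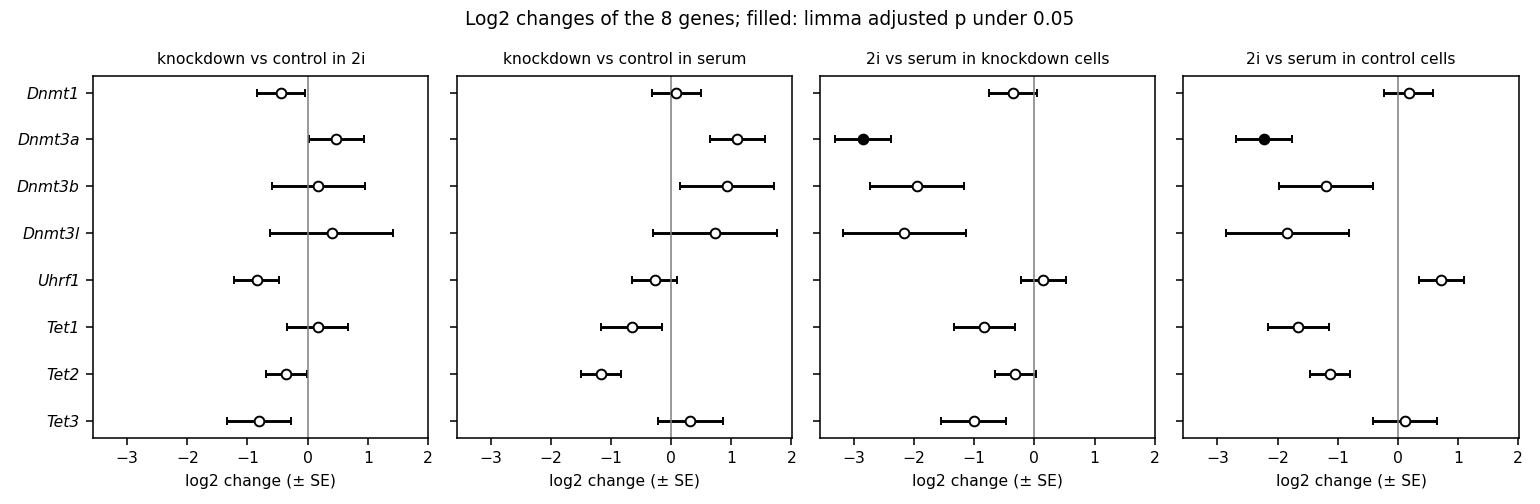
Log2 change (horizontal axis, with SE from limma, 12 libraries) of the 8 genes in 4 comparisons: knockdown against control in 2i and in serum, then 2i against serum in knockdown and in control cells. Filled points passed at an adjusted p under 0.05, which only Dnmt3a did, at −2.85 in knockdown and −2.23 in control cells.

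**Figure D3:**
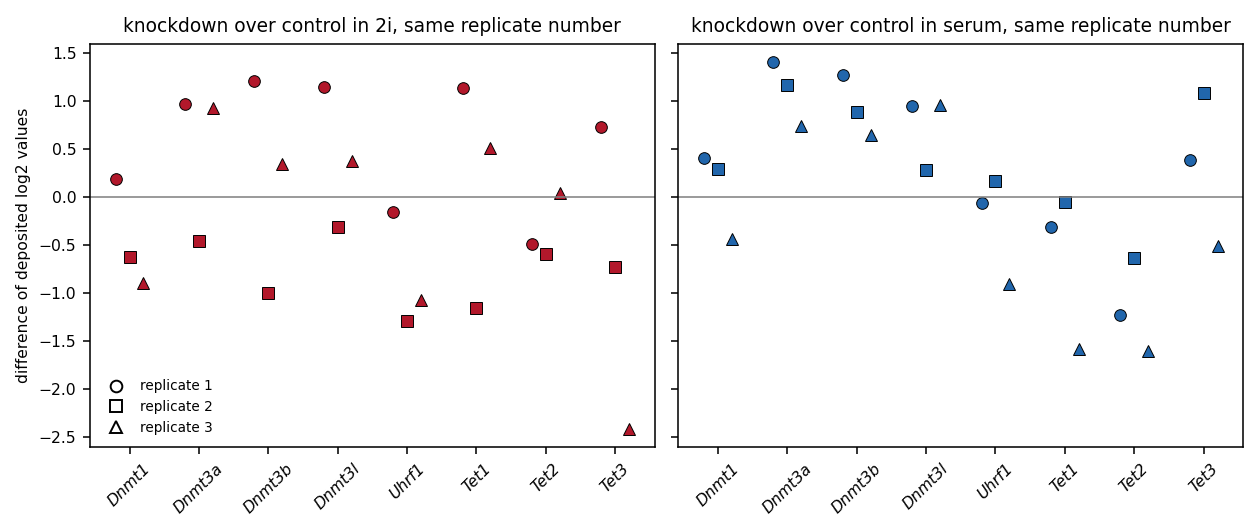
Difference of the deposited log2 values (vertical axis) between the knockdown and the control library of the same replicate number, in 2i (left) and in serum (right), for each of the 8 genes. In serum all 3 points lie above 0 for Dnmt3a, Dnmt3b and Dnmt3l and below 0 for Tet1 and Tet2; in 2i, where the numbers did not pair the libraries throughout, the points of these 5 genes lie on both sides of 0.

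Library composition moved with the de novo genes, and in part with Dnmt1. Ordered by the share of structural RNA, the 2 libraries with the smallest shares, serum knockdown replicates 2 and 1 at 15.6 and 16.1%, had the most Dnmt3b, at 7139 and 9277 normalised reads. The 3 with the largest shares, 2i knockdown replicate 3, 2i control replicate 3 and 2i knockdown replicate 2 at 69.5, 64.6 and 55.6%, had the least, at 675, 523 and 570. Dnmt1 was highest in 2i knockdown replicate 1 (7405 at 19.9%) and serum knockdown replicate 1 (7346 at 16.1%). It was lowest in 2i knockdown replicate 3, at 2400, but had 4518 in 2i control replicate 3. With that share as a covariate, the change of Dnmt3a in 2i was −2.02 in knockdown cells (limma adjusted p = 0.000470) and −1.86 in control cells (limma adjusted p = 0.000211), where 3.49% and 8.53% of all genes passed. That of Dnmt3b was −0.38 and −0.50 (adjusted p = 0.658 and 0.357), and that of Dnmt3l −0.06 and −0.90 (adjusted p = 0.968 and 0.152). In control cells Tet1 (−1.31, limma adjusted p = 0.0202), Tet2 (−0.96, limma adjusted p = 0.0260) and Uhrf1 (0.97, limma adjusted p = 0.0203) passed in that fit. Tet2 in the serum knockdown also passed in it (−1.34, limma adjusted p = 0.00787), where 1.52% of genes did. The share may itself differ with the knockdown or the medium, which was not tested.

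**Figure D4:**
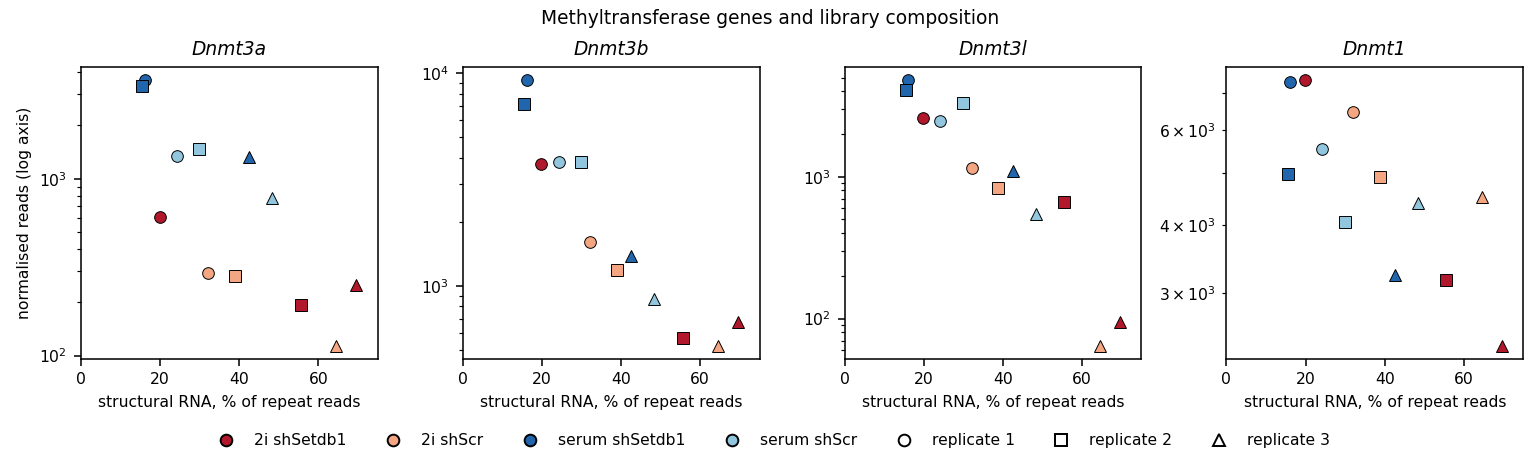
Normalised reads (vertical axis, log scale) of Dnmt3a, Dnmt3b, Dnmt3l and Dnmt1 against the share of repeat reads from structural RNA and tRNA families (horizontal axis, percent) in the 12 libraries, coloured by group with the replicate number as symbol. Dnmt3b has 9277 and 7139 reads at 16.1 and 15.6% and lies between 523 and 675 in the 3 libraries at 55.6% or more, while every 2i library lies below every serum library for Dnmt3a.

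Summed markers of cell state varied among the groups, but few single markers passed. None passed with the knockdown in either medium or between media in control cells. Between media in knockdown cells Lin28a passed, lower in 2i (1 of 6 embryonic stem cell markers). Prdm14 passed there, higher in 2i (1 of 5 naive markers tested). Pou3f1 and Wnt8a passed there, lower in 2i (2 of 3 primed markers tested). The 4 primed epiblast markers other than Dnmt3b summed to 76.1, 546 and 174 normalised reads in the 2i knockdown, with Fgf5 at 0, and to 75.1, 423 and 265 in the 2i control, with Fgf5 and Wnt8a at 0. They summed to 1481, 1577 and 384 in the serum knockdown and 471, 719 and 120 in the serum control, all 4 with reads. In both 2i groups the primed sum was lowest in replicate 1, the library with the most Dnmt3b of its group. The 5 naive pluripotency markers in the table, Prdm14 among them, summed to 4043 to 7844 in the 2i knockdown and 6664 to 10943 in the 2i control. Their sums were 3448 to 4245 in the serum knockdown and 5799 to 8379 in the serum control, all 5 with reads in each group. In control cells both the primed and the naive sums overlapped between media. With the knockdown the naive sums were lower in serum without overlap, and overlapped in 2i. The embryonic stem cell sums given above were likewise lower without overlap in the serum knockdown, and overlapped in 2i. The primed sums of knockdown and control overlapped in both media. The part of these states and of library composition in the differences of the members was not tested. The highest library sums were 166 reads for the 6 fibroblast markers, 143 for the 6 endoderm markers, 124 for the 5 trophoblast markers and 930 for the 3 neural markers.

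Genes with the most similar pattern over the 12 libraries were looked up for the 3 members with the widest group means. Likeness was the root mean square difference of the deposited log2 values after each gene's own mean was removed. For Dnmt3a they were Epha1 (0.45), Pxdn (0.46) and Pou3f1 (0.49), for Dnmt3l Crmp1 (0.69), Lphn2 (0.70) and Enox1 (0.78), and for Dnmt3b Crmp1 (0.48), Ina (0.50) and Qser1 (0.51). The members' own root mean square about their means was 1.45, 1.73 and 1.34 for Dnmt3a, Dnmt3l and Dnmt3b. Pou3f1, a transcription factor of the early post-implantation epiblast, had 3.61, 3.45 and 0 normalised reads in the 2i control, against 39.1, 61.3 and 42.8 in the serum control. In knockdown cells Pou3f1 had 3.84, 0 and 0 in 2i, against 216, 318 and 22.1 in serum. Epha1, Pxdn, Pou3f1, Crmp1, Lphn2 and Enox1 had 0 reads in replicate 3 of both 2i groups, while Ina and Qser1 had reads there. The likeness of those at 0 thus rests in part on the lowest value of the scale.

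Of 74 further genes around this pathway, 16 tested ones were germline genes and 54 tested ones belonged to the other lists. Of these 54, 4 passed between media in knockdown cells (7.41%, against 3.75% of all genes), 1 in control cells (1.85%, against 3.62%) and 0 with the knockdown in either medium. Of the 6 maintenance partners, Uhrf2, a relative of Uhrf1, was the only one to pass, lower in 2i among knockdown cells (−0.92, limma adjusted p = 0.0445). Its reads were 754, 889 and 680 in the 2i knockdown, against 1446, 1340 and 1733 in the serum knockdown. Of 18 tested genes of TET partners and DNA repair, Gadd45a, a stress-induced gene linked to demethylation, fell in 2i in control cells (−1.54, limma adjusted p = 0.0210). Its relative Gadd45g fell in 2i in knockdown cells (−2.30, limma adjusted p = 0.0387). Neither list had a gene that passed with the knockdown, but with the block set within medium Gadd45g rose in the serum knockdown (1.69, limma adjusted p = 0.00886). It did not pass with the replicate number alone as a block (limma adjusted p = 0.0536) or with the covariate (limma adjusted p = 0.269).

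Prdm14, which represses Dnmt3b in mouse embryonic stem cells, was the 1 of 9 tested regulators to pass. It had 254, 416 and 232 normalised reads in the 2i knockdown, against 70.0, 64.8 and 112 in the serum knockdown, and rose in 2i (1.47, limma adjusted p = 0.0220). In control cells it had 385, 466 and 291 in 2i, against 132, 142 and 264 in serum (0.97, limma adjusted p = 0.123). Dppa3, which keeps UHRF1 from chromatin and was singled out after its values were seen, did not pass, at 2.89 in 2i (adjusted p = 0.185) and 3.15 in serum (adjusted p = 0.194) with the knockdown. With the replicate number as a block it rose in serum (limma adjusted p = 0.00379). In 2i, where the numbers did not pair all libraries, that block gave a limma adjusted p = 0.00463. Of 14 tested methyl donor genes, Bhmt, a homocysteine methyltransferase, rose in 2i in knockdown cells (2.95, limma adjusted p = 0.00813). Bhmt had 109, 153 and 509 normalised reads in the 2i knockdown, against only 11.4, 0.84 and 1.92 in the serum knockdown. Of 7 readers of methylated DNA none passed, and the largest changes were Zbtb38 at 1.13 in control cells (2i against serum, limma adjusted p = 0.0515) and Mbd3 at −0.93 in knockdown cells (limma adjusted p = 0.228).

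The 16 germline genes, known for silencing of their promoters by DNA methylation, were the list with the most calls. The list was chosen with earlier results of these data known, so its lead is not independent of them. With the knockdown 4 rose in 2i, Mael, Tex101, Brdt and Stk31 (25%, against 1.27% of all genes). In serum 1 rose, Stk31 (6.25%, against 0.649%). List medians were 2.05 in 2i and 1.00 in serum, beside 0.01 and −0.0015 over all genes tested. With the replicate number as a block 3 rose in serum, Stk31, Hormad1 and Taf7l, and with the block set within medium Brdt as well. Those fits called 1.18% and 1.46% of all genes in serum. In 2i, where the numbers did not pair all libraries, either block called 11 of the 16. Of all 14487 genes tested, 321 passed in 2i with the replicate number as a block and 425 with the block set within medium. Between media 3 fell in 2i in control cells, Ddx4, Mael and Tdrd1 (18.8%, against 3.62% of all genes). Ddx4 also fell in knockdown cells (6.25%, against 3.75%). The list median between media was −0.83 in control cells, with 12 of 16 genes lower in 2i. In knockdown cells it was 0.34, with 10 of 16 higher in 2i. Over all genes tested both medians were −0.05. Mael, of the piRNA pathway, had 369, 380 and 459 normalised reads in the 2i knockdown, against 28.2, 15.9 and 22.3 in the 2i control (2.96, limma adjusted p = 0.00698). Mael fell in the 2i control, against 430, 428 and 886 in the serum control (−3.37, limma adjusted p = 0.00279).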

How the data were processed

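Ribosomal RNA-depleted directional libraries of 12 samples were analysed. The deposited gene and repeat values are log2 values, variance-stabilised by the authors; DESeq2, Trim Galore 0.3.3, TopHat2 2.0.9 and mm9 are named per the submitters' processing notes. For annotation, counting and strand the settings were not given in the sources used here. The transformation was inverted to reads, and 100% of gene values came out whole within 0.01 read. Deposited log2 values were tested with limma 3.58.1 (R 4.3.3), with 1 mean per group over 12 libraries, 8 residual degrees of freedom, a mean-variance trend, two-sided p-values and Benjamini-Hochberg adjustment over 14487 of 26061 genes, those averaging at least 0.5 above the lowest value (4.45). Fold changes of low genes are understated on this scale. The fit was tested on simulated data. Gene depth was 4821181 to 15509401 reads, and counting precision falls with depth.

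The members and lists were chosen with earlier results of these data known. Named were the members, Setdb1, every gene of the pathway lists that passed, the 2 largest changes of a list with none, and for 3 members the 3 genes most alike. Same-numbered serum libraries deviated together (correlations 0.58, 0.23 and 0.51 from the data, the numbers from the labels). In 2i they did not all (0.46, 0.06 and 0.52). Alternatives were other filters, median centring, quantile normalisation, voom, no trend, only the groups compared, replicate blocks, the structural RNA share as covariate, and left-out libraries. Leaving out replicate 3 of every group was added after seeing the data.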

Additional observations from a re-analysis of the deposited data

How the results depend on the processing

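Counts of passing members and genes moved with the filter, the blocks, the covariate and left-out libraries. Without the filter 0 members passed in either comparison of media, and genes passing numbered 104 (2i knockdown), 55 (serum knockdown), 1 (difference between media), 199 (media, knockdown cells) and 143 (media, control cells). With the stricter filter they numbered 89, 62, 316 and 325 in the same order without the difference. With voom they were 114 for the 2i knockdown and 240 for the media in knockdown cells, and with only the groups compared 88 and 195. With the replicate block, which pairs libraries by number, members passing were 1 in the serum knockdown, 3 between media in knockdown cells (Dnmt3a, Dnmt3b, Dnmt3l) and 4 in control cells (Dnmt3a, Dnmt3l, Tet1, Tet2). Across media same-numbered libraries did not all deviate together. Their correlations were 0.23, −0.18 and 0.22 for shScr and 0.50, 0.005 and 0.44 for shSetdb1. The calls that this block added between media rest on that pairing. Genes passing with this block were 321 (2i knockdown), 171 (serum knockdown), 1583 and 1351. With the replicate block within medium they were 425, 211 and, for the difference, 2, with 1 member in the serum knockdown. With the covariate they were 368, 220 and, between media in control cells, 1236, with 1 member in the serum knockdown and 4 in control cells. The cause was not tested.

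Leaving out libraries gave 0 to 0 members for both knockdown comparisons and their difference, 1 to 3 between media in knockdown cells and 0 to 2 in control cells. Genes passing ranged over 99 to 253 (2i knockdown), 37 to 116 (serum knockdown), 0 to 1 (difference), 144 to 1522 (media, knockdown cells) and 171 to 773 (media, control cells). The 1522 came without 2i knockdown replicate 1, the 144 without serum knockdown replicate 2, the 37 without serum control replicate 1 and the 171 without 2i control replicate 3. Signs turned with the covariate for Dnmt1 (−0.21) and Dnmt3l (−0.28) in the serum knockdown, for Dnmt3b (0.12) and Dnmt3l (0.85) in the difference, and for Dnmt1 (0.28) and Tet2 (0.0617) between media in knockdown cells. With voom Tet3 turned to −0.46 between media in control cells. Over left-out libraries signs turned in the serum knockdown for Dnmt1 (−0.20 to 0.39), Dnmt3l (−0.0414 to 1.38) and Uhrf1 (−0.57 to 0.0719), and in the 2i knockdown for Dnmt3b (−0.66 to 0.66), Dnmt3l (−0.70 to 1.52) and Tet1 (−0.35 to 0.51). They also turned for Dnmt3l in the difference (−1.43 to 0.79), Uhrf1 between media in knockdown cells (−0.22 to 0.45) and Tet3 in control cells (−0.21 to 0.77). Without replicate 3 of every group, the 2i knockdown gave 89 genes and the serum knockdown 54, and signs turned for Uhrf1 in the serum knockdown (0.0489), Tet1 in the 2i knockdown (−0.00984) and Tet3 between media in control cells (−0.16). None of these passed. Where 1 library was left out, the others of its group were assumed to vary like the rest. Dnmt3a kept its sign between media under every alternative run. Tet3, with 0 to 110 recovered reads a library, has the largest counting error of the members relative to its level; its spread between libraries did not follow depth, with 3 reads in the deepest library.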
